A study of Mus musculus with 24 samples.

Results

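C2C12 is an established mouse myoblast line whose cells divide in serum-rich medium and, after serum is lowered at high density, leave the cell cycle and fuse into multinucleated myotubes. The comparison described here is the change in gene expression between these states at 21% oxygen. It rests on 4 RNA-seq libraries of the 24 samples in the series: replicates A and B in growth medium (DMEM with 10% fetal bovine serum, cells kept below confluence) and replicates A and B in differentiation medium (DMEM with 2% horse serum and a supplement of insulin, transferrin and selenium). The cells carried no engineered allele and received no other agent according to the labels, and the design calls A and B biological replicates. Another 4 RNA-seq libraries, from the same media at 2% oxygen, were used only to ask whether a change differed between the oxygen levels, and the H3K27me3 and input libraries were not analysed here. Of 24043 genes in the deposited table, the 11988 with a mean of at least 1 FPKM (fragments per kilobase of transcript, scaled to the size of the library) in either medium were the genes compared. Medium, serum species, supplement, cell density and time in culture changed together and cannot be told apart. In RNA from a whole culture, fewer cells of a type and less RNA per cell cannot be told apart either.

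Muscle differentiation is driven by the basic helix-loop-helix factors MyoD, Myf5, myogenin and MRF4, which pair with E proteins and bind E-boxes, together with factors of the MEF2 family. MyoD and Myf5 mark committed myoblasts, whereas myogenin is switched on at the start of terminal differentiation. The cells then leave the cell cycle with the help of p21 and the retinoblastoma protein, fuse through the membrane proteins myomaker and myomixer, and build sarcomeres, the ordered arrays of thick myosin and thin actin filaments that contract. Calcium released from the sarcoplasmic reticulum drives that contraction, and acetylcholine receptors in the membrane receive the nerve's signal.

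The 4 libraries summed to between 480018 and 525741 FPKM, with 14917 to 15431 genes above 0. The most abundant entry in each was Mir6236, at 1.79% to 2.91% of the summed signal. FPKM do not keep the number of reads. The most frequent ratio of low values between libraries, taken as single fragments, gave depths of 0.756 to 1 relative to the deepest of the 4 libraries. Over the genes compared, the replicates correlated at 0.9725 in growth medium and 0.9809 in differentiation medium on log2(FPKM + 1), and 70 and 61 genes differed by more than 2-fold between A and B. All 8 defining muscle markers exceeded the expression minimum, and their summed level was 490.3 and 406 FPKM in growth medium and 6203 and 6210.4 FPKM in differentiation medium. Among the libraries at 2% oxygen, the replicates in differentiation medium disagreed for dividing-cell genes, so that Mki67, a proliferation antigen, stood at 3.46 FPKM in A and 23.6 FPKM in B.

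Promoter sequences of 6 genes whose levels are given further on are printed to show the short motifs that the regulators named above and below are known to recognise. They are the 250 bases before the gene start in RefSeq, on build GRCm38.p6, in the direction of transcription, with matches on either strand in capitals. Chrna1 (chr2:73580339-73580588, minus strand) and Chrng (chr1:87205561-87205810, plus strand) encode acetylcholine receptor subunits, and the capitals mark the E-box CAGCTG.
Chrna1: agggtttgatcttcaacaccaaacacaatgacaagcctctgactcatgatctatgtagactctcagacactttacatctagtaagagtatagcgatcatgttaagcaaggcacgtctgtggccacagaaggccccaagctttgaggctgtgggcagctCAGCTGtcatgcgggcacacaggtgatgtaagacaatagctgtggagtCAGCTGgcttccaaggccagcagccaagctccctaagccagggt
Chrng: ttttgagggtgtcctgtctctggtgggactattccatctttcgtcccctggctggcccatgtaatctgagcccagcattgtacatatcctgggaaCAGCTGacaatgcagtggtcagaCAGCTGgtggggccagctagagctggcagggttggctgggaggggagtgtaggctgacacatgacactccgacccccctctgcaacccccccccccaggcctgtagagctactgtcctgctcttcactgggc
Ifit3 (chr19:34583279-34583528, plus strand) and Isg15 (chr4:156200819-156201068, minus strand) are interferon-induced, and the capitals mark the core of the interferon-stimulated response element, TTTC, any 2 bases and TTTC again, whose 3 matches in Isg15 overlap.
Ifit3: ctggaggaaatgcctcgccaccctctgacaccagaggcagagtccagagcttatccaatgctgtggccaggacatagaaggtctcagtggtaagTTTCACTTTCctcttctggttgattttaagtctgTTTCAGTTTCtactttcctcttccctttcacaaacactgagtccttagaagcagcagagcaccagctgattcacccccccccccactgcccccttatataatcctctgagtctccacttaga
Isg15: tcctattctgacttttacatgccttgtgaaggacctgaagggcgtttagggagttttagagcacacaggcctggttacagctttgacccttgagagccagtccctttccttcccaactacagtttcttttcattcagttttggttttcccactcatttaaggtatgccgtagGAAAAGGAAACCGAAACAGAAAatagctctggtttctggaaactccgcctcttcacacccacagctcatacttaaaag
Ccnb2 (chr9:70421555-70421804, minus strand) encodes cyclin B2, a partner of the mitotic kinase, and the capitals mark 3 CCAAT boxes.
Ccnb2: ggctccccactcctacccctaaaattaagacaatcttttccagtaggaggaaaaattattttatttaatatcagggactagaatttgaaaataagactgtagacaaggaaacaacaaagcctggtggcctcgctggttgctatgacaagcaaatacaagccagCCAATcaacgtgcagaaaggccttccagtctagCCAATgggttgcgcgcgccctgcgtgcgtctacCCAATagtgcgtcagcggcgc
Chac1 (chr2:119350992-119351241, plus strand) encodes a glutathione-degrading enzyme induced by the transcription factor ATF4, and the capitals mark the amino acid response element TGATGNAA on the opposite strand.
Chac1: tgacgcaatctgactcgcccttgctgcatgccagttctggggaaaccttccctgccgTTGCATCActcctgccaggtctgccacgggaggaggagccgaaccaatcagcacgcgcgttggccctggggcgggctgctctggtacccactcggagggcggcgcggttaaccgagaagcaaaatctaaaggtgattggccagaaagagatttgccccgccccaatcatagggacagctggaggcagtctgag

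Across gene groups, the motifs were counted over every 250-base promoter that RefSeq gives for the tested members. CAGCTG stood in 18 of 48 promoters (37.5%) of the thick and thin filament genes, of which 43 of 49 had a promoter in the RefSeq table, and in 13.0% of all 32851 promoters. For the Z-disc, coupling and synapse genes under 80% of members had a promoter. CAGCTG stood in 4 of 25, 7 of 17 and 3 of 11 of their promoters, and for that reason these counts are void as a comparison. CCAAT stood in 33 of 42 promoters (78.6%) of the mitosis genes, in 28 of 43 (65.1%) of the replication genes and in 20 of 27 (74.1%) of the endoplasmic reticulum stress and ATF4 genes, against 33.8% of all promoters. TTTGAA, the cell cycle homology region, stood in 17 of 42 promoters (40.5%) of the mitosis genes against 16.0% of all. The interferon element stood in 11 of 32 promoters (34.4%) of the interferon genes against 2.98% of all, and TGATGNAA in 4 of 27 (14.8%) of the stress and ATF4 genes against 3.45%. All promoters include those of genes that were not tested here. Of the genes tested 79.1% had a promoter, which is also under 80%, so their shares carry the same limit. Over them the shares were 12.2% for CAGCTG, 35.5% for CCAAT and 10.5% for TTTGAA. For the interferon element the share was 2.51% and for TGATGNAA 1.99%. A match describes the letters in the window and does not show that a factor binds there.

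Differentiation medium changed most of the expressed genes at 21% oxygen. By limma on log2(FPKM + 1), 8895 of 11988 genes passed an adjusted p of 0.05, which is 74.2%. The 3418 higher genes were 28.5% of those tested and the 5477 lower genes 45.7%. With a change of at least 1 on the log2 scale as well, 1434 genes rose (12.0%) and 2166 fell (18.1%). The median change over all genes was -0.21. After median-of-ratios scaling of the libraries that median was -0.00198 and 50.2% of called genes were higher. The share was 38.4% as deposited and 42.1% after upper-quartile scaling. Unless a scaling is named, changes are given as deposited and are not corrected for the general shift of -0.21. Small changes are to be read with that shift in mind. Because 74.2% of genes passed, a count called says little alone. It is set beside the median in most lists and beside the 2-fold count in some. A gene that reached the 1 FPKM minimum in 1 medium only was bound to be higher there: 660 tested genes reached it only in differentiation medium and 808 only in growth medium, and 461 of the 1434 large rises and 397 of the 2166 large falls were under it in the other medium. Counts and medians of lists that hold many such genes describe them and do not support a direction. In what follows, paired values are replicates A and B (n = 2), ± is the standard error, and a change given without a fold is a difference in log2(FPKM + 1).

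**Figure D1:**
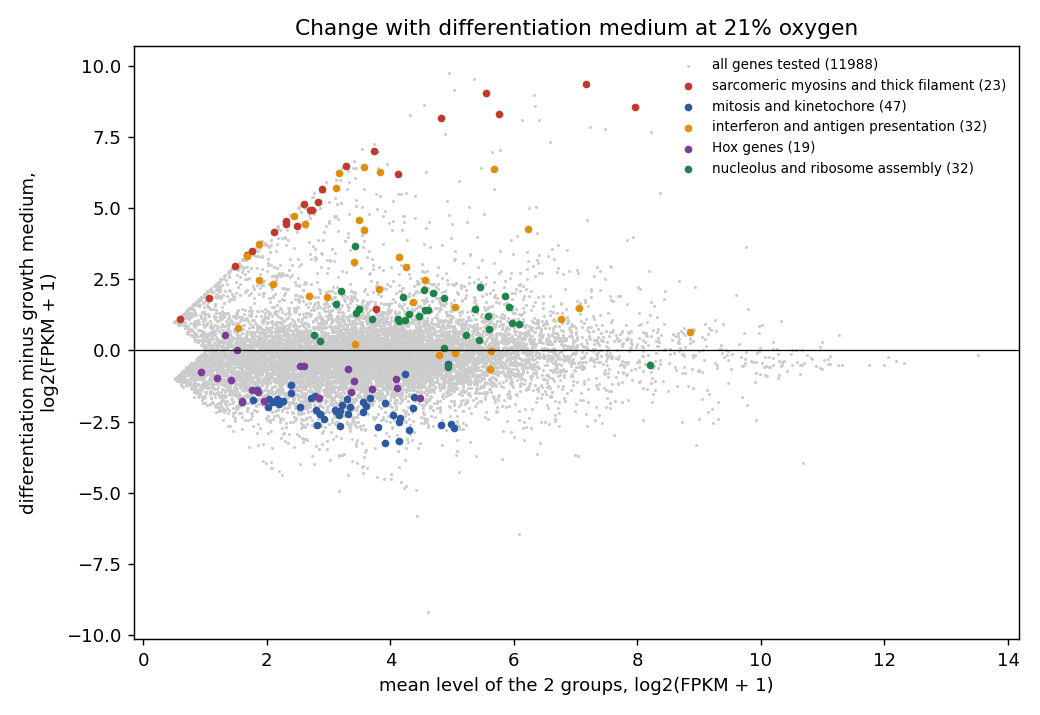
Change of every tested gene between the media at 21% oxygen (vertical axis, difference in log2(FPKM + 1)) against its mean level (horizontal axis, log2(FPKM + 1)); grey points are the 11988 genes and colours mark 5 gene groups. The 23 tested thick filament genes, 17 of which reached the expression minimum only in differentiation medium, lie above 0, and the 47 mitosis genes, 45 of which reached it in both media, lie below 0.

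The factors that start terminal differentiation rose steeply, while those that mark committed myoblasts rose little. Myog, which encodes myogenin, was 13.3 and 8.83 FPKM in growth medium and 2576 and 2642 FPKM in differentiation medium, a 235-fold rise (log2 change 7.78 ± 0.18 SE, adjusted p = 2.14e-06). Myod1 was 139 and 108 FPKM in growth medium and 180.5 and 172 FPKM in differentiation medium. The groups did not overlap, and the change was 0.52 ± 0.13 (adjusted p = 0.013); with all 8 libraries fitted the adjusted p was 0.0743, and without replicate A or B in differentiation medium it was 0.115 or 0.0856. Myf5 went from 20.0 FPKM in both growth medium libraries to 30.7 and 29.1 FPKM (0.56 ± 0.08, adjusted p = 0.00112). Myf6, which encodes MRF4, stayed low, at 0.179 and 0.276 FPKM before and 1.15 and 1.3 FPKM after (0.86 ± 0.11).

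Of 22 tested myogenic regulators, 14 rose and 6 fell, and 11 rose by at least 2-fold on the log2(FPKM + 1) scale while none fell that far. Their median was 0.95, against -0.21 over all genes, and 7 of the 22 reached the minimum only in differentiation medium. Mef2c was nearly silent in growth medium, at 0.0405 and 0.0547 FPKM, and reached 27 and 28.5 FPKM (4.78 ± 0.09). Mef2a (2.11) and Mef2d (1.03) of the same family rose less. Csrp3, encoding the muscle LIM protein that acts with MyoD, had the largest rise of the list, from 0 and 0.277 FPKM to 365 and 327 FPKM. Smyd1, a muscle methyltransferase, rose by 4.34, and Tead4, a DNA-binding partner of the YAP coactivator, by 3.63. The homeodomain factor Six4 fell from 11.6 and 13.8 FPKM to 6.09 and 6.11 FPKM, and Nfix, a factor of fetal muscle, from 131 and 129.8 FPKM to 67.9 and 66.3 FPKM.

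**Figure D2:**
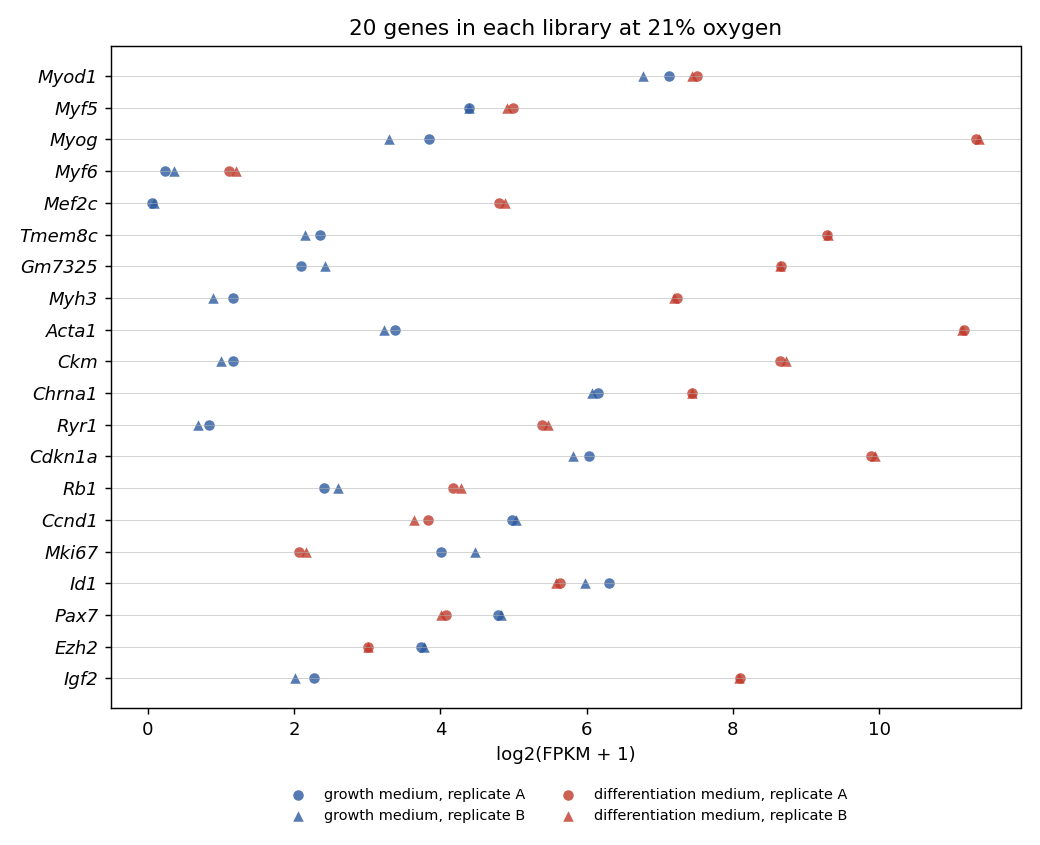
Level of 20 genes in each of the 4 libraries (horizontal axis, log2(FPKM + 1)); blue is growth medium, red is differentiation medium, circles are replicate A and triangles replicate B. The replicates lie close together beside the distance between media for Myog, Tmem8c and Ckm, while the media lie close together for Myod1 and Myf5.

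The progenitor factors and MyoD antagonists moved in both directions: 10 of 23 tested rose and 11 fell, with a median of -0.10 that became 0.12 after median-of-ratios scaling. Among the genes of the Id proteins, which sequester E proteins away from MyoD, Id3 and less firmly Id1 were lower. Id3 fell from 444 and 359 FPKM to 117 and 112 FPKM (3.52-fold). Id1 went from 78.3 and 62.1 FPKM to 48.6 and 46.7 FPKM (-0.54 ± 0.12, adjusted p = 0.00854), which did not hold with all 8 libraries fitted (0.122) after median-of-ratios scaling (0.0571) and without replicate A or B in differentiation medium (0.0687 and 0.0883). Twist2, a repressor of MyoD activity, fell 9.3-fold, from 28.2 and 23.9 FPKM to 2.97 and 2.64 FPKM. Pax7, the satellite cell factor, fell from 26.6 and 27.3 FPKM to 15.9 and 15.1 FPKM. In the other direction, Klf4, a zinc finger factor, rose from 10.4 and 10.3 FPKM to 54.1 and 48.4 FPKM, and Mdfi, an inhibitor of myogenic factors, from 4.26 and 2.29 FPKM to 13.4 and 14.4 FPKM. The list therefore held rising members beside falling ones such as Id3 and Twist2.

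The membrane proteins that carry out fusion rose by over 100-fold while several adhesion proteins of myoblasts fell. Tmem8c, which encodes myomaker, was 4.12 and 3.44 FPKM in growth medium and 625 and 632 FPKM in differentiation medium (166-fold). Gm7325, which encodes myomixer, was 3.28 and 4.38 FPKM before and 402 and 401 FPKM after (105-fold, 6.39 ± 0.12). Cav3, the muscle caveolin, rose by 6.31 and Dysf, the membrane repair protein dysferlin, by 3.42. Of 28 tested fusion genes 12 rose and 12 fell (15 and 12 after median-of-ratios scaling), and 10 of the falls were at least 2-fold. The integrin subunit Itga3 fell 8.31-fold, from 57.3 and 53.6 FPKM to 7.05 and 6.29 FPKM, and the tetraspanin Cd9 fell 4.12-fold, from 382 and 375 FPKM to 93.8 and 89.8 FPKM. Myof, the dysferlin relative myoferlin, fell by 1.5, so the 2 ferlins moved in opposite directions. Cdh15, the M-cadherin of myoblasts, showed 0.27 and did not pass the test as deposited, but it was called higher after median-of-ratios and upper-quartile scaling.

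Genes of the contractile apparatus went from low to high levels. Of 26 thick filament genes 23 were tested and rose, each by at least 2-fold, but 17 of them reached the minimum only in differentiation medium, so that their direction was fixed by the choice of genes; the median of 4.94 is a description. Myl1, a myosin light chain of fast muscle, was 6.09 and 3.39 FPKM in growth medium and 3632 and 3577 FPKM in differentiation medium (760.4-fold). Mybph, myosin binding protein H, was 0.917 and 1.18 FPKM before and 1101 and 1018 FPKM after. Myh3, the embryonic myosin heavy chain, went from 1.24 and 0.846 FPKM to 149.8 and 146 FPKM (142-fold). The other heavy chains rose as well, with log2 changes of 7.01 for Myh1, 5.66 for the perinatal Myh8, 4.17 for Myh2, 3.50 for Myh4 and 1.84 for the slow Myh7. Myh6 and Mybpc3 of the heart and the slow light chain Myl3 did not reach the expression minimum. Ttn, the giant spring protein titin, rose by 4.94.

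In the thin filament, 19 of 26 tested genes rose and 4 fell, with a median of 4.75, and 6 reached the minimum only in differentiation medium. Acta1, the skeletal actin, was 9.36 and 8.35 FPKM before and 2299 and 2235 FPKM after (256-fold). Tnnc2, fast troponin C, went from 3.45 and 1.87 FPKM to 1726 and 1823 FPKM, and Tnnt3, fast troponin T, from 3.62 and 2.73 FPKM to 1579 and 1568 FPKM. Troponin genes of slow muscle rose too, by 8.10 for Tnni1 and 7.66 for Tnnc1, whereas cardiac Tnni3 did not pass the test (-0.31). The 4 that fell are actins and tropomyosins that cells outside muscle also use. Actg1, cytoplasmic gamma-actin, fell from 1314 and 1088 FPKM to 296 and 277 FPKM, with the caution that it has many processed pseudogenes. Tpm4 fell from 318 and 331 FPKM to 104 and 98.8 FPKM, Actb by 1.52 and Tpm3 by 0.86. In FPKM, which are scaled by length, Acta1 stood at a mean of 2267 and Actg1 at 286 after the change of medium, the reverse of their order before it.

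Of the Z-disc and intermediate filament genes, 22 of 26 tested rose and 3 fell (median 2.53), with 7 at the minimum only in differentiation medium. Myoz2, a calcineurin-binding Z-disc protein, went from 0 and 0.101 FPKM to 115 and 96.3 FPKM, and Xirp1, an actin-bundling protein, from 0.176 and 0.263 FPKM to 65.6 and 56.1 FPKM. Desmin, the muscle intermediate filament, was already abundant: Des rose 2.27-fold from 228 and 194 FPKM to 484 and 474 FPKM. Vimentin, the filament of mesenchymal cells and myoblasts, moved the other way, and Vim fell 5.46-fold from 2358 and 2159 FPKM to 442 and 386 FPKM. Fhl3, a LIM protein, fell 3.28-fold.

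The dystrophin complex, which ties the cytoskeleton to the matrix, was less uniform. Of 20 tested genes 11 rose and 6 fell (median 0.55). Trim72, the membrane repair protein MG53, went from 0.192 and 0.169 FPKM to 99.1 and 101 FPKM, and the syntrophin Sntb1 from 1.26 and 1.55 FPKM to 62.4 and 68.2 FPKM. Alpha-sarcoglycan, Sgca, rose by 1.65 while epsilon-sarcoglycan, Sgce, fell from 25 and 22.9 FPKM to 9.28 and 8.81 FPKM. The sarcoglycans therefore did not move as a unit. Chkb, a choline kinase, fell 2.65-fold. Dmd itself was listed at a mean of 0 in growth medium and 0.117 FPKM in differentiation medium, under the expression minimum.

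Genes for releasing and storing calcium rose in nearly every case: 21 of 23 tested excitation-contraction genes passed upward, none downward, with a median of 2.92, and 8 of the 23 reached the minimum only in differentiation medium. Ryr1, the calcium release channel, went from 0.785 and 0.6 FPKM to 40.9 and 43.5 FPKM. Atp2a1, the fast-muscle calcium pump, went from 4.01 and 3.03 FPKM to 540.4 and 578 FPKM (159-fold), and Casq2, a calcium-binding protein of the reticulum, from 0.564 and 0.643 FPKM to 152 and 142 FPKM. Asph (-0.03) and Ryr3 (0.35) were the 2 that did not pass. Sln and Pln, small inhibitors of the pump, stayed under the minimum.

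At the synapse, 11 of 13 tested genes rose, 1 fell and the median was 1.32, with 4 at the minimum only in differentiation medium. Chrna1, whose promoter is printed above, was already expressed in growth medium at 70.3 and 66.3 FPKM and reached 172 and 173 FPKM (2.53-fold). Chrng, the fetal receptor subunit, rose 12.3-fold from 30.3 and 24.7 FPKM to 347 and 327 FPKM, and Dok7, an activator of the MuSK kinase, from 0.817 and 0.967 FPKM to 23 and 22.6 FPKM. The adult subunit Chrne stayed under the minimum. Rapsn, the protein that clusters the receptors, went against its list and fell 2.32-fold, from 76.7 and 59.6 FPKM to 31.0 and 27.7 FPKM.

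Genes of muscle energy supply rose, and some enzymes exchanged a general for a muscle form. In the list of muscle energy genes 18 of 26 tested rose and 3 fell (median 2.03), and 6 reached the minimum only in differentiation medium. Mb, myoglobin, had the largest rise of all list members, from 0.57 and 0.44 FPKM to 1182 and 1040.4 FPKM (9.53 ± 0.10). Ckm, muscle creatine kinase, went from 1.23 and 0.99 FPKM to 399.7 and 421 FPKM. Cox6a2, the muscle form of a cytochrome oxidase subunit, went from 0.274 and 0.106 FPKM to 495 and 425 FPKM, while its ubiquitous form Cox6a1 fell from 548 and 461 FPKM to 195 and 191 FPKM. The subunit thus exchanged isoforms. Ldhb, a lactate dehydrogenase subunit, fell 1.58-fold and Esrra, an estrogen-related receptor, 1.5-fold; Esrra lost its call without replicate A or B in differentiation medium (adjusted p = 0.0523 and 0.0937).

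The nuclear genes of oxidative phosphorylation rose by little but widely: 38 of 52 passed upward and 5 downward, with a median of 0.48 and 5 rises of at least 2-fold. Uqcrq, a subunit of complex III, rose 5.4-fold from 183 and 165 FPKM to 880.4 and 1000.3 FPKM, and Cycs, cytochrome c, 3.8-fold. In the tricarboxylic acid cycle and fat oxidation 17 of 30 rose and 7 fell (median 0.26), or 21 and 4 after median-of-ratios scaling. Dld, the dihydrolipoamide dehydrogenase, rose 3.78-fold, while the acyl-CoA dehydrogenases parted: Acadl rose from 39.5 and 43.5 FPKM to 116 and 117 FPKM and Acadm fell from 108 and 112 FPKM to 23.7 and 25.3 FPKM. Idh2 fell 2.93-fold. In glycolysis 6 of 19 rose and 7 fell, with a median of -0.17 that became 0.06 after median-of-ratios scaling. Hexokinase exchanged forms: Hk2 rose 9.1-fold from 5.8 and 6.01 FPKM to 53.2 and 54.3 FPKM and Hk1 fell 1.65-fold. Pdk4, which blocks pyruvate oxidation, fell from 10.9 and 12.0 FPKM to 0.971 and 0.929 FPKM.

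Among 12 fatty acid synthesis genes 1 rose and 9 fell, also after median-of-ratios scaling (median -0.95, or -0.72 after scaling). Of 24 tested cholesterol genes 4 rose and 12 fell, against 28.5% and 45.7% of all genes. The share called was 66.7%, against 74.2% of all genes, and the median of -0.28 was close to that of all genes. After scaling 7 rose and 11 fell with a median of -0.07. Insig1, the sterol sensor, fell from 32.2 and 34.9 FPKM to 6.4 and 7.35 FPKM, Srebf1, the lipogenic transcription factor, from 52.6 and 44.8 FPKM to 12.1 and 13.1 FPKM, and the elongase Elovl6 fell 6.16-fold. Dhcr7, the last enzyme of cholesterol synthesis, had the largest rise of the cholesterol genes, from 8.27 and 8.07 FPKM to 36.0 and 34.3 FPKM. Nsdhl also passed upward (0.47), and its adjusted p was 0.114 with all 8 libraries fitted and 0.0778 without replicate B in differentiation medium. Scd1 rose 1.42-fold.

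Transcripts for dividing fell together. All 47 mitosis and kinetochore genes fell, 45 of them by at least 2-fold, with a median of -2.0. Cenpa, the centromeric histone, went from 46.7 and 44.0 FPKM to 3.85 and 3.96 FPKM (11.6-fold). Ccnb2, with the CCAAT boxes printed above, went from 50.2 and 54.1 FPKM to 5.2 and 4.41 FPKM (10.9-fold), and Mki67 from 15.1 and 21.3 FPKM to 3.17 and 3.48 FPKM. The libraries of the 2 media were separated for each of these. Replication genes fell less, with 39 of 43 lower, 2 higher and a median of -1.05. Rfc3, a clamp loader subunit, fell 5.0-fold, and the DNA ligase Lig1 6.3-fold. E2f2 stood out among replication genes, rising 9.11-fold from 7.24 and 6.83 FPKM to 62.4 and 65.7 FPKM. The kinase gene Cdk2 also rose, from 17.3 and 15.8 FPKM to 25.1 and 26.0 FPKM, which no longer passed with all 8 libraries fitted (adjusted p = 0.0734).

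Genes of cell cycle exit were divided, with 11 of 26 tested higher, 11 lower and a median of -0.10 that became 0.12 after median-of-ratios scaling. Over all genes 28.5% were higher and 45.7% lower. The inhibitor p21, encoded by Cdkn1a, rose 16.1-fold, from 64.4 and 55.3 FPKM to 947 and 984 FPKM (3.99 ± 0.10). Cdkn1c, encoding p57, rose 9.75-fold from 9.45 and 10.4 FPKM to 88.0 and 105 FPKM, and the retinoblastoma gene Rb1 rose 3.78-fold from 4.33 and 5.08 FPKM to 17.1 and 18.4 FPKM. Its relatives Rbl1 and Rbl2 fell, by 0.82 and 0.94 on the log2 scale, and so did the inhibitors Cdkn1b (-0.62) and Cdkn2c (-0.89). The D cyclins also parted. Ccnd1 fell 2.52-fold, from 30.5 and 31.7 FPKM to 13.2 and 11.5 FPKM, while Ccnd3 rose by 2.09 and Ccnd2 by 1.12. Cdk4 fell 2.44-fold and the MAX partner Mxd4 6.32-fold.

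The replication-dependent histone genes did not fall with the replication genes: 29 of 38 tested members rose and 5 fell, with a median of 0.98, although 16 reached the minimum only in differentiation medium and 5 only in growth medium. Hist1h1c, a linker histone, went from 31.1 and 29.3 FPKM to 164 and 185 FPKM, and Hist1h2bc from 10.9 and 9.47 FPKM to 47.5 and 50.5 FPKM. Of 61 histone genes in the table only these 38 reached the minimum in a medium. The libraries were made from total RNA, most histone messages lack a poly(A) tail, and near-identical copies can share reads, so single histone values are uncertain.

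Deoxynucleotide genes such as Tk1, Tyms, Rrm1 and Rrm2 fell while serine and mitochondrial folate genes rose, so that of 21 tested nucleotide and one-carbon genes 9 rose and 8 fell (median 0.10). Mthfd2, a mitochondrial folate enzyme, went from 6.42 and 5.24 FPKM to 215 and 224 FPKM (37.6-fold), and Psph, the last enzyme of serine synthesis, from 9.23 and 8.67 FPKM to 102 and 117 FPKM. Shmt2 (3.36), Psat1 (3.18) and Phgdh (3.07) rose as well. Tk1, thymidine kinase, fell 9.51-fold from 47.5 and 39.4 FPKM to 3.96 and 5.17 FPKM, and Paics, a purine enzyme, 2.25-fold.

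Ribosome assembly genes rose, and the ribosomal protein genes did not rise with them. Of 32 nucleolar and assembly genes 29 rose and 2 fell, with a median of 1.25. Rrp12, a processing factor, went from 2.17 and 1.88 FPKM to 36.1 and 39.0 FPKM, and the nucleolar GTPase Gnl3 from 19.4 and 19.3 FPKM to 90.3 and 96.5 FPKM. Npm1 (-0.51) and Polr1c (-0.58) were the 2 that fell, and without replicate B in differentiation medium neither passed (adjusted p = 0.0545 and 0.0558; 0.0571 for Polr1c without replicate A). Of 82 cytosolic ribosomal protein genes 3 rose and 42 fell, against 28.5% and 45.7% of all genes. The share called was 54.9%, against 74.2% of all genes, and the median was -0.34, against -0.21. After median-of-ratios scaling 12 rose and 19 fell with a median of -0.11. Rpl7 went from 1832 and 1606 FPKM to 886 and 883 FPKM and Rpsa from 1709 and 1294 FPKM to 809 and 775 FPKM. Rpl35 rose 1.46-fold, a call lost without a filter on low values (adjusted p = 0.0523) and without replicate A or B in differentiation medium (0.124 and 0.174). Without replicate B there the adjusted p of Rpsa was 0.0568. These genes have many pseudogenes that can take their reads.

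ATF4 is a transcription factor that cells make more of under amino acid shortage and other stress. Of 29 tested endoplasmic reticulum stress and ATF4 genes 19 rose and 6 fell, 15 rising by at least 2-fold, with a median of 1.24. Trib3, a pseudokinase, went from 1.75 and 1.66 FPKM to 119.8 FPKM in both libraries (70.3-fold). Chac1, with the response element printed above, went from 2.09 and 2.32 FPKM to 135 and 139 FPKM (62.2-fold). Atf4 itself rose by 2.07, the amino acid transporter Slc7a5 by 5.01 and asparagine synthetase, Asns, by 4.79. The chaperones of the reticulum did not follow them as a group, since Hspa5 rose by 1.31 while Hsp90b1, Pdia3, Pdia4 and Sdf2l1 fell by between 0.49 and 0.98 on the log2 scale.

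Fgf21, a secreted factor that ATF4 is known to induce, went from 0.67 and 0.129 FPKM to 785 and 751 FPKM (9.13 ± 0.18), the largest rise among the growth factor genes. Igf2, an autocrine growth factor of differentiating myoblasts, went from 3.82 and 3.02 FPKM to 272 and 269 FPKM (79.2-fold), whereas Igf1 fell by 1.95. All 30 tested genes of the IGF, FGF and receptor tyrosine kinase list were called, 10 higher and 20 lower, with a median of -0.76. Hgf, the ligand of the Met receptor, fell 26.7-fold from 37.1 and 58.1 FPKM to 1.43 and 2.13 FPKM, and Met fell by 1.57. The platelet-derived growth factor receptor gene Pdgfrb fell 7.49-fold from 79.5 and 76.1 FPKM to 10.8 and 9.97 FPKM. Hgf and its receptor were thus both lower, while Igf2 and Fgf21 went against most of the list.

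In the TGF-beta, BMP and Wnt list 7 of 26 tested rose and 12 fell, against 28.5% and 45.7% of all genes. The share called was 73.1%, close to the 74.2% of all genes. Its median was -0.17, against -0.21 over all genes, and became 0.04 after median-of-ratios scaling. The list as a whole thus moved much as all genes did. Fst, the myostatin antagonist follistatin, went from 0.64 and 0.808 FPKM to 34.3 and 34.2 FPKM. Mstn, myostatin, was under the minimum. Among secreted antagonists that fell, Sfrp2 went from 56.9 and 45.9 FPKM to 1.58 and 1.71 FPKM (31.2-fold) and Grem1 from 134 and 168 FPKM to 11.4 and 9.65 FPKM (14.3-fold). Of 31 immediate early, SRF and YAP target genes 13 were higher and 13 lower, or 17 and 12 after median-of-ratios scaling. The median of these genes was 0.17, and 5 rose and 7 fell by at least 2-fold. Atf3 rose 32.1-fold and Fos 7.18-fold, from 2.1 and 1.75 FPKM to 15.6 and 12.0 FPKM, while the actin-binding genes Cnn2 and Flna fell 6.88-fold and 3.38-fold.

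Matrix genes moved in both directions and included the deepest fall of any list member. Mgp, matrix Gla protein, an inhibitor of calcification, fell 101-fold from 672 and 583 FPKM to 5.31 and 7.18 FPKM (-6.45 ± 0.15). Of 45 tested collagens and matrix genes 17 rose and 24 fell (median -0.42), against 28.5% and 45.7% of all genes; after median-of-ratios scaling 18 rose and 22 fell (median -0.19). Fbln1 fell 14.1-fold while its relative Fbln5 rose 3.95-fold, and Postn, periostin, rose 2.7-fold. Among 15 matrix proteases and inhibitors 4 rose and 9 fell (median -0.54). The gelatinase Mmp2 fell from 433 and 395 FPKM to 73.6 and 67.8 FPKM, and its activator Mmp14 from 260.3 and 245 FPKM to 78.0 and 73.4 FPKM.

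Interferon-stimulated genes, which defend cells against viruses, were also higher in many cases. Of 32 interferon and antigen presentation genes 27 rose, 1 fell and 25 rose by at least 2-fold, with a median of 2.46, and 10 of the 32 reached the minimum only in differentiation medium. Ifit3 went from 0.242 and 0.32 FPKM to 109 and 111 FPKM, and Isg15, a ubiquitin-like modifier, from 3.61 and 5.66 FPKM to 442 and 476 FPKM (99-fold); the response elements of both are printed above. The factors that transmit the signal rose too, by 4.24 for Irf7, 2.92 for Irf9 and 2.46 for Stat2. Tapbp, a peptide-loading protein, fell, from 65.8 and 54.3 FPKM to 39.0 and 37.3 FPKM, and lost its call with all 8 libraries fitted (adjusted p = 0.0617). The blood cell markers Ptprc, Emr1, Tyrobp, Cd3e and Hbb-b1 were listed at 0 in all 4 libraries. The summed level of all 12 markers was 13.4 to 16.2 FPKM in growth medium and 3.86 to 4.52 FPKM in differentiation medium. In growth medium most of it was Cd14, which fell from 10.8 and 9.9 FPKM to 1.81 and 1.79 FPKM.

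Chemokines moved in both directions, with 9 of 23 tested cytokine genes higher, 13 lower and a median of -0.90; 5 reached the minimum only in differentiation medium. Cxcl10, an interferon-inducible chemokine, went from 0.902 and 0.857 FPKM to 54.7 and 69.0 FPKM. Cxcl12, a chemokine that guides migrating cells, fell 86.5-fold from 159 and 163 FPKM to 2.03 and 1.7 FPKM, and Cxcl5, a neutrophil attractant, 13.4-fold from 480.4 and 465 FPKM to 32.3 and 38.0 FPKM. Ptgs2, the inducible cyclooxygenase, rose 9.98-fold. Cxcl10 and Cxcl12 thus ended in the reverse of their order in growth medium.

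The atrophy ligases that mark breakdown of muscle protein did not move together. Trim63, encoding MuRF1, went from 0.295 and 0.228 FPKM to 36.9 and 37.8 FPKM and its relative Trim54 from 0.514 and 0.433 FPKM to 49.7 and 52.0 FPKM, whereas Fbxo32, encoding atrogin-1, fell from 22.6 and 26.4 FPKM to 5.27 and 6.08 FPKM. Of 32 tested ubiquitin ligase and proteasome genes 23 rose and 4 fell (median 0.44). Of 29 lysosome and autophagy genes 5 rose and 16 fell (median -0.32), against 28.5% and 45.7% of all genes. The share called was 72.4%, close to the 74.2% of all genes. After median-of-ratios scaling 9 rose and 11 fell (median -0.09). Ctsl, cathepsin L, rose 3.48-fold from 187 and 182 FPKM to 637 and 645 FPKM, while Npc2 fell 2.71-fold.

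Among regulators of RNA, Rbm24 and Rbm38, which bind muscle messages, rose 17.6-fold and 14.6-fold, and the splicing repressor Ptbp1 fell 1.88-fold from 86.2 and 79.2 FPKM to 44.7 and 43.3 FPKM. Of 20 tested splicing regulators 8 rose and 4 fell (median 0.14), or 13 and 4 after median-of-ratios scaling. H19, a maternally expressed long noncoding RNA beside Igf2, rose 12.5-fold from 274 and 217 FPKM to 3250.2 and 2875 FPKM. The paternally expressed Mest fell 14.9-fold from 212 and 204 FPKM to 13.4 and 14.5 FPKM, so imprinted genes moved in both directions. Of 20 muscle microRNA genes measured, 15 were listed at 0, and the values of the others rest on very short lengths: Mir133b was 23.2 and 0 FPKM in growth medium and 94.4 and 132 FPKM in differentiation medium, and its adjusted p was 0.0264, or 0.204 with robust moderation and 0.117 and 0.147 without replicate A or B in differentiation medium.

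The Hox genes, which keep positional identity and are classic Polycomb targets, were lower as a family. Of 19 tested 17 fell and 1 rose, with a median of -1.09 that was -0.88 after median-of-ratios scaling, and 4 reached the minimum only in growth medium. Those tested were all of the A and C clusters, the B and D genes being under the minimum. Hoxc10 fell from 39.5 and 37.8 FPKM to 12.4 and 10.5 FPKM, and Hoxc6 from 11.5 and 12.1 FPKM to 3.23 and 2.83 FPKM. Of 36 tested H3K27 methylation and chromatin regulators 7 rose and 19 fell (median -0.49), against 28.5% and 45.7% of all genes. The share called was 72.2%, close to the 74.2% of all genes. After median-of-ratios scaling 13 rose and 18 fell (median -0.31). Ezh2, the H3K27 methyltransferase, went from 12.3 and 12.7 FPKM to 7.07 and 7.08 FPKM (-0.74 ± 0.08, adjusted p = 0.000489), and its adjusted p was 0.0997 with all 8 libraries fitted. Its partners Eed (0.05) and Suz12 (0.21) did not pass the test. Kdm6b, an H3K27 demethylase, rose 1.4-fold (adjusted p = 0.0584 without replicate A in differentiation medium), and the chromodomain gene Cbx6 fell 5.9-fold.

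Several genes that oxygen shortage is known to induce were higher in differentiation medium although oxygen was 21% in both groups. Of 16 tested hypoxia response genes 10 rose and 3 fell (median 0.63). Egln3, an oxygen-sensing hydroxylase, went from 25.8 and 27.4 FPKM to 214 and 181 FPKM (7.41-fold) and Ero1l, an oxidase of the endoplasmic reticulum, from 10.5 and 13.1 FPKM to 74.8 and 65.9 FPKM (5.97-fold). Vegfa rose by 2.15. P4hb fell 1.94-fold and Mxi1 2.1-fold. In growth medium at 2% oxygen Ero1l stood at 537 and 462 FPKM, above all 4 libraries at 21%, and Egln3 at 264 and 262 FPKM.

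The largest fitted rise and fall of all were at small RNA genes, Snord96a and Mir5133, listed at 0 in growth medium and differentiation medium respectively. Such genes, whose values rest on very short lengths, were left out of the genes outside the lists, which were ranked among those called with at least 10 FPKM in the higher medium and no overlap. The 10 with the largest rises by that rule included further muscle genes. Tmem182, a muscle membrane protein, went from 0.0697 and 0.215 FPKM to 96.9 and 93.7 FPKM. Hfe2, hemojuvelin, reached 87.1 and 86.0 FPKM from 0.307 and 0.316 FPKM, and Abra, an actin-binding activator of SRF, was listed at 0 in growth medium and at 64.7 and 54.0 FPKM after. Chchd10, a mitochondrial protein, rose 119.6-fold. Itgb1bp2, Slc2a6, Akr1b7, Ctxn3, Prkag3 and Irgm2 completed the 10, with log2 changes of 5.28 to 5.92. Of the 10 largest falls by the same rule, Aqp1, a water channel, went from 91.5 and 85.6 FPKM to 2.54 and 2.7 FPKM, and Ptn, the growth factor pleiotrophin, from 69.4 and 71.3 FPKM to 1.98 and 2.3 FPKM. Ifitm1 fell 39.5-fold although it belongs to a family named for interferon induction. Aldh3a1, Slc16a11, Syt13, Slc1a3, Nsg1 and the proliferin genes Prl2c2 and Prl2c3, near-identical copies, fell by 4.13 to 4.94 on the log2 scale.

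**Figure D3:**
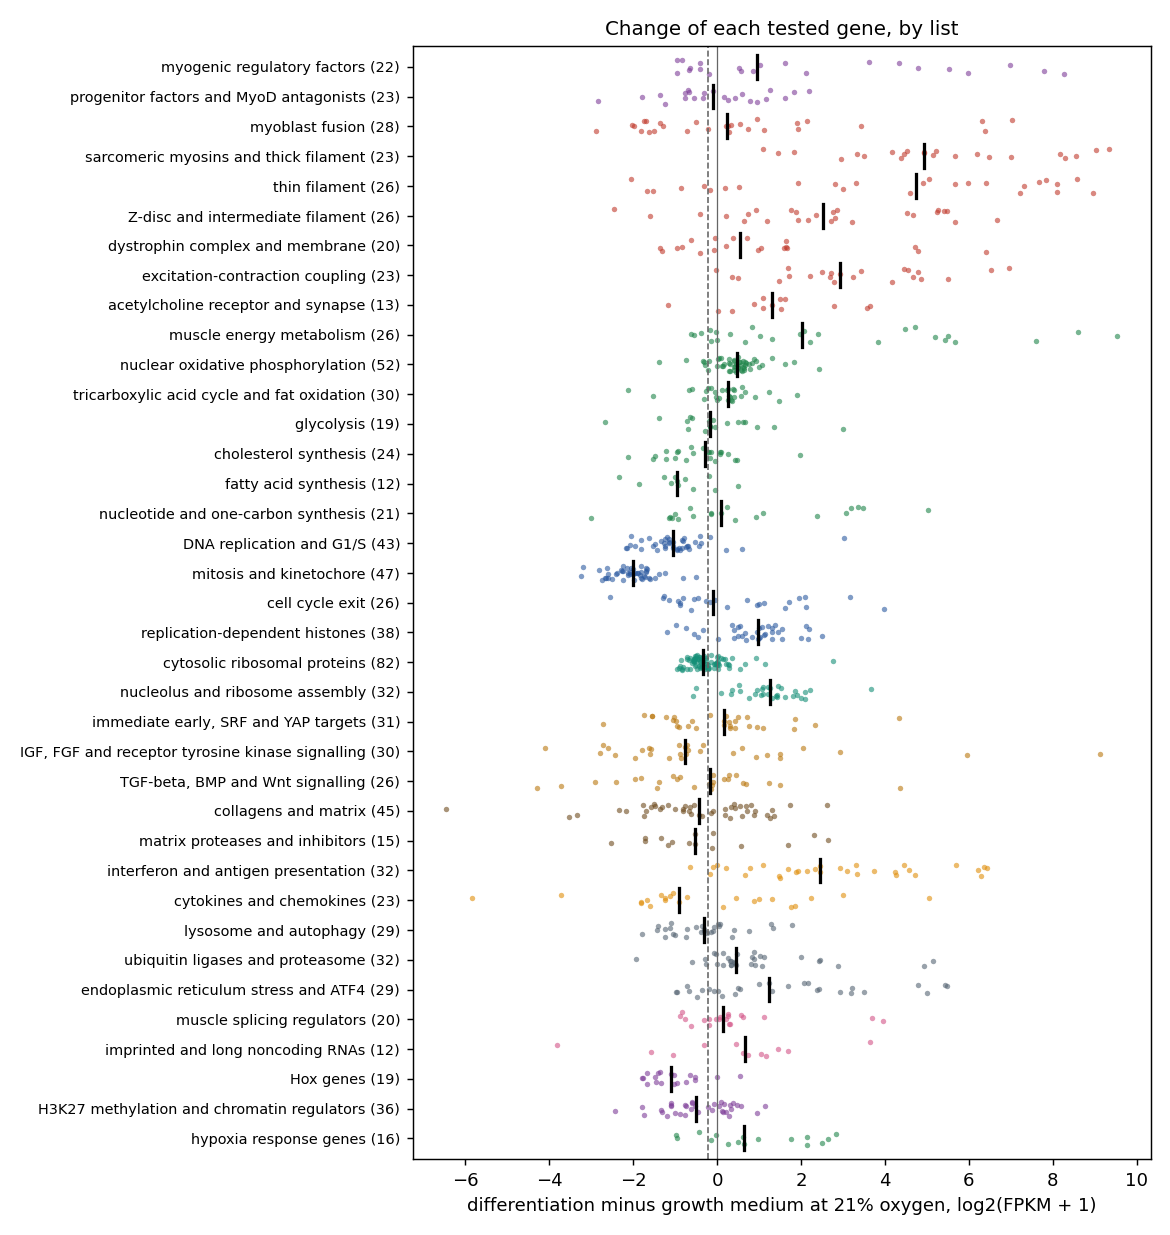
Change of each tested gene between the media at 21% oxygen (horizontal axis, difference in log2(FPKM + 1)), 1 point a gene, by list with the number of tested genes; black bars are list medians and the dashed line is the median of all genes, -0.21. Members that reached the expression minimum in 1 medium only are included. The filament, coupling and interferon lists lie to the right, with medians of 4.94, 4.75, 2.92 and 2.46, and mitosis lies to the left at -2.0.

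Markers of other cell types were mostly at or near 0. Of 11 adipocyte markers 8, with Adipoq and Plin1 among them, were listed at 0 in all 4 libraries. The summed level of the 11 was 22.6 to 25 FPKM in growth medium and 7.81 to 8.27 FPKM in differentiation medium. In growth medium most of it was Cebpa, which fell from 19.1 and 17.2 FPKM to 4.33 and 3.91 FPKM. The 11 endothelial and pericyte markers, 10 of them under the minimum, summed to 6.41 and 6.83 FPKM before and 7.39 and 6.54 FPKM after. The bone and cartilage list of 12 summed to 21.3 to 23.8 FPKM before and 87.1 to 105 FPKM after. That rise was almost wholly Bglap, osteocalcin, at 4.86 and 1.38 FPKM before and 93.1 and 75.5 FPKM after, while Runx2 fell 1.57-fold and Sp7 and Alpl stayed under the minimum; Bglap has near-identical copies. Neural markers summed to 85.1 and 85.7 FPKM before and 11.1 and 10.3 FPKM after, most of it Stmn2, which fell 12.6-fold. The 11 smooth muscle genes summed to 648 to 747 FPKM and then 998 to 1018 FPKM, with Myh11 under 0.1 FPKM and Myocd at 0; 4 rose and 3 fell, and Des is also a skeletal muscle gene. The part of such cells in the results was not tested.

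The same change of medium was then set against 2% oxygen, with a test of the difference between the 2 changes over all 8 libraries. It passed for 6583 of 11988 genes (54.9%), of which 4296 (35.8%) were more positive at 2% oxygen and 2287 (19.1%) more negative; after median-of-ratios scaling 47.0% of the calls were positive in place of 65.3%. Of the 1434 genes that rose by at least 1 at 21% oxygen, 1240 were more negative at 2% and 6 more positive, and their median change was 1.67 at 21% and 0.14 at 2%. For the 2166 that fell by at least 1, 1738 were more positive at 2% and 13 more negative, with medians of -1.44 and -0.23. These genes were chosen for their size at 21% oxygen from libraries that the test also uses, so the counts describe them and are no independent support. The same holds for list members that reached the minimum only in differentiation medium at 21% oxygen.

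Muscle genes were among those with wide gaps between the oxygen levels. The thick filament list had a median change of 4.94 at 21% oxygen and 0.06 at 2%, and 22 of its 23 genes passed as more negative, but 17 had entered only through differentiation medium at 21%, which leaves that count without support. Excitation-contraction genes had medians of 2.92 and 0.11, with 22 of 23 more negative and 8 that entered that way. For Myog, the levels at 2% oxygen were 0.342 and 0.442 FPKM in growth medium and 4.49 and 2.14 FPKM in differentiation medium, and the difference between the changes was -6.20 ± 0.39 (adjusted p = 4.15e-05). Myod1 at 2% was 25.1 and 26.1 FPKM in growth medium and 6.95 and 11.8 FPKM in differentiation medium, a change in the direction opposite to that at 21% (difference -1.92 ± 0.31, adjusted p = 0.00233). For Igf2, levels at 2% were 1.36 and 1.43 FPKM before and 0.531 and 0.624 FPKM after (difference -6.55 ± 0.16). Cdkn1a was already 242 and 241 FPKM in growth medium at 2% oxygen and 257 and 364 FPKM in differentiation medium (difference -3.65 ± 0.23).

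Several other groups differed as well. The interferon list had medians of 2.46 at 21% and 0.01 at 2% oxygen, with 28 of 32 genes more negative, 10 having entered only through differentiation medium at 21%. Nucleolar genes had medians of 1.25 and 0.41, with 20 of 32 more negative. Cholesterol genes went the other way, with medians of -0.28 and 3.21 and 23 of 24 genes more positive at 2%, and fatty acid genes had medians of -0.95 and 1.01, with 11 of 12 more positive. Oxidative phosphorylation genes were called less often than all genes. Their medians were 0.48 and 0.60, and the median difference was 0.07, against 0.26 over all genes. More positive were 12 of 52 and more negative 4, against 35.8% and 19.1% of all genes. Mitosis genes had medians of -2.0 and -0.17, but only 4 of 47 passed the test of the difference, and the replicates at 2% oxygen in differentiation medium disagreed there: Ccnb2 was 4.68 FPKM in A and 36.3 FPKM in B. Chrna1 changed by 1.32 at 21% and 0.93 at 2% oxygen, a difference that did not pass as deposited (adjusted p = 0.146) but did after median-of-ratios scaling (0.00931) and without replicate B of differentiation medium at 2% oxygen (0.00621). That of Pax7 did not pass (adjusted p = 0.536).

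**Figure D4:**
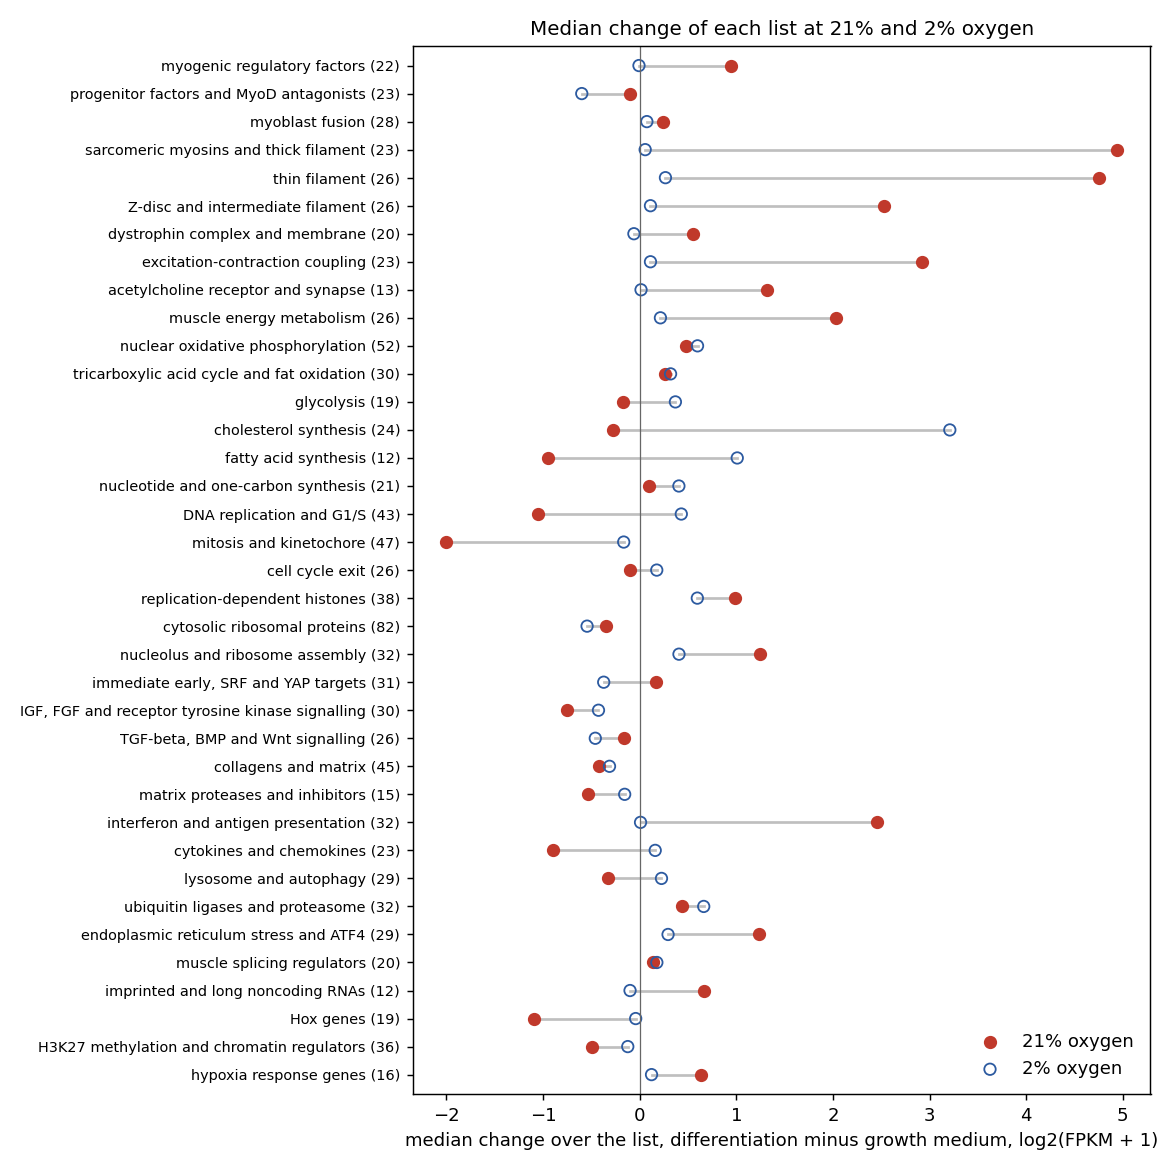
Median change of each list between the media (horizontal axis, difference in log2(FPKM + 1)) at 21% oxygen (filled red) and 2% oxygen (open blue), 1 row a list with the number of genes. Filament, coupling and interferon lists lie far right at 21% and near 0 at 2%, and the cholesterol list lies at -0.28 and 3.21.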

How the data were processed

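The authors deposited 1 table of FPKM per gene for the 8 RNA-seq libraries. The submitters' processing notes name STAR 2.5.1b, Cufflinks 2.2.1 and mm9; the annotation, strand setting and scaling are not given in the sources used here. Per the labels' protocols, RNA was extracted with Trizol and libraries were stranded total RNA. FPKM are not counts, so limma 3.58.1 in R 4.3.3 was fitted with an intensity trend to log2(FPKM + 1), a pseudocount of 1, over the 4 libraries at 21% oxygen (2 residual degrees of freedom), for genes with a mean of at least 1 FPKM in either group. Tests were two-sided with Benjamini-Hochberg adjustment. A fold on this scale understates the change of low genes; a linear ratio of means is given only where both are at least 1 FPKM. The difference between oxygen levels was fitted on all 8 libraries and is given singly only for the 20 genes listed by hand. An exact permutation of 2 against 2 libraries cannot go below 0.333. Absolute depth is not kept in FPKM, so no counting interval is given.

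The members and the 45 gene lists, written from textbook knowledge, were chosen with earlier results of these data known. Lists were described by counts and medians, without a test. Named genes were the 20 listed by hand and, in each list and outside the lists, the largest called rises and falls (up to 2 each way in a list, 10 outside) with at least 10 FPKM in the higher group and no overlap between groups; outside the lists, small RNA genes and genes without a given function were left out. List members named with a log2 change alone were added after their values were seen. The alternatives were other fits, pseudocounts, filters, scalings, a replicate block and leaving out each library. The fits were also run on simulated data. Those held few changed genes and no general shift, unlike the data here, so they do not bear on the number of calls. Some members of the lists are counted but not reported by name here.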

Additional observations from a re-analysis of the deposited data

Results flagged for a closer look

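The changes with medium at 21% and 2% oxygen differed, by limma's test of the difference with Benjamini-Hochberg adjustment, at 6583 genes. Among the 20 genes listed by hand, 15 passed as deposited, and in these 15 the change was more negative at 2% oxygen. The other genes include some that passed when a library of differentiation medium at 2% oxygen, whose replicates disagree, was left out: without replicate A the difference was 1.63 for Ccnd1, 1.85 for Ezh2 and 3.18 for Mki67, and without replicate B it was 0.63 for Ccnd1, 0.60 for Ezh2 and -0.62 for Chrna1, which also passed after median-of-ratios scaling (-0.73) and upper-quartile scaling (-0.60). For the regulators the difference between the log2 changes was -1.92 for Myod1, -0.73 for Myf5, -6.20 for Myog, -0.87 for Myf6 and -4.79 for Mef2c. For the fusion genes it was -6.33 for Tmem8c and -6.14 for Gm7325. For genes of contraction and energy supply it was -5.51 for Myh3, -6.52 for Acta1, -7.21 for Ckm and -4.48 for Ryr1. For cell cycle exit it was -3.65 for Cdkn1a and -1.55 for Rb1. Of these genes, Myf6, Mef2c and Ryr1 averaged 0.227, 0.0476 and 0.692 FPKM in growth medium at 21% oxygen, under the expression minimum. They were tested only through their level in differentiation medium there, which favours a negative difference. Their values and their part in the count of 15 are therefore descriptions without support. For Igf2 the difference was -6.55. For Id1 it was -1.10 (adjusted p = 0.049), and it did not pass with the replicate block (0.0647), without a filter on low values (0.0846) or without any 1 of the 4 libraries at 21% oxygen or the 2 in growth medium at 2% oxygen (0.0731 to 0.148).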

How the results depend on the processing

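Requiring an absolute log2 change of at least 1 left 3600 of the 8895 calls between media (1434 higher, 2166 lower) and 3342 of the 6583 differences between oxygen levels (2018 more positive, 1324 more negative). Under the other alternatives the calls between media numbered 7077 with a minimum of 5 FPKM to 9733 with no filter, and 6531 to 9272 when 1 library was left out. With the replicate block they numbered 9159; the deviations of same-lettered libraries in the 2 media correlated at 0.0409, so the letters were not taken to pair the samples. The differences between oxygen levels numbered 6197 with the replicate block and 5055 to 7834 when 1 library was left out, the highest without replicate A in differentiation medium at 2% oxygen. Over 2352 comparisons of a named gene with an alternative, 2325 kept the call, 27 lost it and 0 changed sign. Apart from the 20 listed by hand, the named genes were picked among large calls without overlap in these same libraries. Most were therefore bound to keep their call and sign, and the tally describes them without being independent support. With 2 libraries a group, p-values rest on variance shared across genes.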
